A study of Mus musculus with 37 samples.

Results

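Neuronal transcripts were followed in astrocyte libraries from the mouse hippocampus through 38 genes, all of them named by symbol in a list and all of them present among the 21975 genes of the tables. Members were taken by gene symbol from a list drawn up with earlier results of these data known. It holds 8 genes of synaptic vesicle release, 8 of the neuronal cytoskeleton, 9 of glutamatergic transmission and the postsynapse, 6 of GABA neurons and interneurons, 2 markers of granule cells and 5 other neuronal genes. Astrocytes had been isolated with ACSA-2 microbeads, which bind a surface antigen of astrocytes, from papain-dissociated hippocampus 4 months after controlled cortical impact (CCI), a focal contusion made with an impactor, or after sham surgery. Injured mice were split by continuous video and EEG recording into PTE+ mice, which developed post-traumatic epilepsy, and PTE- mice, which did not. The labels give the genotype of all of them as WT CD31, while the study's methods describe adult male CD1 mice, so both names are kept here. The impact was made over the right parietal cortex, and the injured side is called ipsilateral. The contralateral set held 5 PTE+, 10 PTE- and 5 sham libraries and the ipsilateral set 4 PTE+, 8 PTE- and 5 sham libraries, each library from 1 hippocampus of 1 mouse. Of the 20 mice, 17 had libraries from both sides, and mice are named below as in the labels (a9_19 is a PTE+ mouse).

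A neuron packs transmitter into synaptic vesicles and releases it when vesicle and membrane proteins of the SNARE family zip together under the control of calcium. In the hippocampus, pyramidal and granule cells release glutamate, which is loaded by a vesicular glutamate transporter and read by AMPA and NMDA receptors anchored in the postsynaptic density. Interneurons make GABA with the glutamate decarboxylases, and subsets of them carry the peptides somatostatin or neuropeptide Y, above all in the hilus of the dentate gyrus. Astrocytes wrap these synapses, and a preparation of astrocytes can carry fragments of synapses and dendrites or RNA set free from other cells. Bulk libraries cannot tell fewer neuronal fragments from less RNA per fragment, nor neuronal RNA from a low level of the same transcript in the astrocytes themselves.

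Promoters are shown for 3 members. Npy made up most of the inhibitory TPM in most libraries below, Sst is the other interneuron peptide gene listed and Syn1 is a textbook neuron-restricted vesicle gene. Each is the 250 bases before the RefSeq start of the gene, on the strand of the gene, in build GRCm38.p6, with Sst at chr16:23890845-23891094 on the minus strand, Npy at chr6:49822460-49822709 on the plus strand and Syn1 at chrX:20920919-20921168 on the minus strand. Capitals mark matches to TGACGTCA, the cyclic AMP response element, and to CAGCACC, the left part of RE1, the element bound by the repressor REST.
Sst: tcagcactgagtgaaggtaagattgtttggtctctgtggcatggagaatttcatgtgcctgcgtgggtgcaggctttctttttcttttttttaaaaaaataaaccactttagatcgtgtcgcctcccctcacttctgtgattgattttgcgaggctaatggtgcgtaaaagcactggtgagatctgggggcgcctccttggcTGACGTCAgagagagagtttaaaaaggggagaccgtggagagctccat
Npy: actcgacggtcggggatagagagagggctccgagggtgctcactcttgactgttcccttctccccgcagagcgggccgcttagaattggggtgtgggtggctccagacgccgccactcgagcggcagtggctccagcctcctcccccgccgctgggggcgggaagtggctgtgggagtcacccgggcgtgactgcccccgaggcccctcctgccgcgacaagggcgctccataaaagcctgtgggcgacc
Syn1: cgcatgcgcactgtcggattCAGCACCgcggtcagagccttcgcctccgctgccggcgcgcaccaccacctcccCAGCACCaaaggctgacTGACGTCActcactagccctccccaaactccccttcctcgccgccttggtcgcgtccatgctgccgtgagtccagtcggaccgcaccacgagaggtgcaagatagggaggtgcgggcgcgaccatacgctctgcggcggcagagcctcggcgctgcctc
The cyclic AMP response element began 48 bases before the start of Sst and 159 before that of Syn1, and CAGCACC began 230 and 176 bases before the start of Syn1. Of 32851 RefSeq promoters of this length, searched on both strands, 508 (1.55%) held TGACGTCA and 1883 (5.73%) held CAGCACC, while 6134 (18.7%) held GGACAG, the right part of RE1. RefSeq promoters were matched by symbol for 25 of the 38 members, and among these TGACGTCA stood in Sst and Syn1, CAGCACC in Syn1 and Tubb3 and GGACAG in 7. A match in a window describes its letters only, and no measurement here reads these promoters.

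Library totals ran from 25371887 to 55333329 counts contralaterally and from 36925501 to 59846479 ipsilaterally. The number of genes with a count ran from 11756 to 15321 and from 9020 to 15545. The 12 astrocyte markers, which include Aqp4, Aldoc, Slc1a2 and Gja1, summed to between 6108 and 22712 TPM (library-scaled transcript abundance, a level per transcript length) across the 37 libraries. The lowest of these sums was in the ipsilateral PTE- library of mouse a8_11, which also had the fewest genes. In 4 libraries at least 10 members had 3 counts or fewer, the limit taken here for detection. They were a9_14 with 17 members and a9_20 with 10 among the contralateral PTE- libraries, the ipsilateral sham library of a9_9 with 16 and the ipsilateral PTE- library of a8_11 with 12. In each of the other libraries 1 to 9 members stood at that limit.

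The 38 members together made up 0.0708% to 0.364% of the TPM of a library. Their summed level was lowest, at 708 TPM, in the contralateral sham library of a8_16 and highest, at 3641 TPM, in the contralateral PTE+ library of a9_19. Levels per gene covered a wide range, from a mean of 180 TPM for Vamp2 to 0.0635 TPM for Slc32a1 across the 37 libraries. The members also varied from library to library more than the astrocyte markers did. The median coefficient of variation (SD over mean of TPM across all libraries) was taken over genes with a mean of at least 1 TPM. It was 0.88 for 36 of the 38 members and 0.32 for the 12 astrocyte markers, beside 0.76 for 13868 genes. Other listed non-neuronal cell types also exceeded the astrocyte markers, with medians from 0.59 (mural) to 1.19 (ependymal or choroid plexus). Endothelial markers had the same median as the members, 0.88. Vamp2 was the steadiest member with a coefficient of 0.31, and the 5 inhibitory members with such a mean were the least steady with a median of 2.23.

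**Figure D1:**
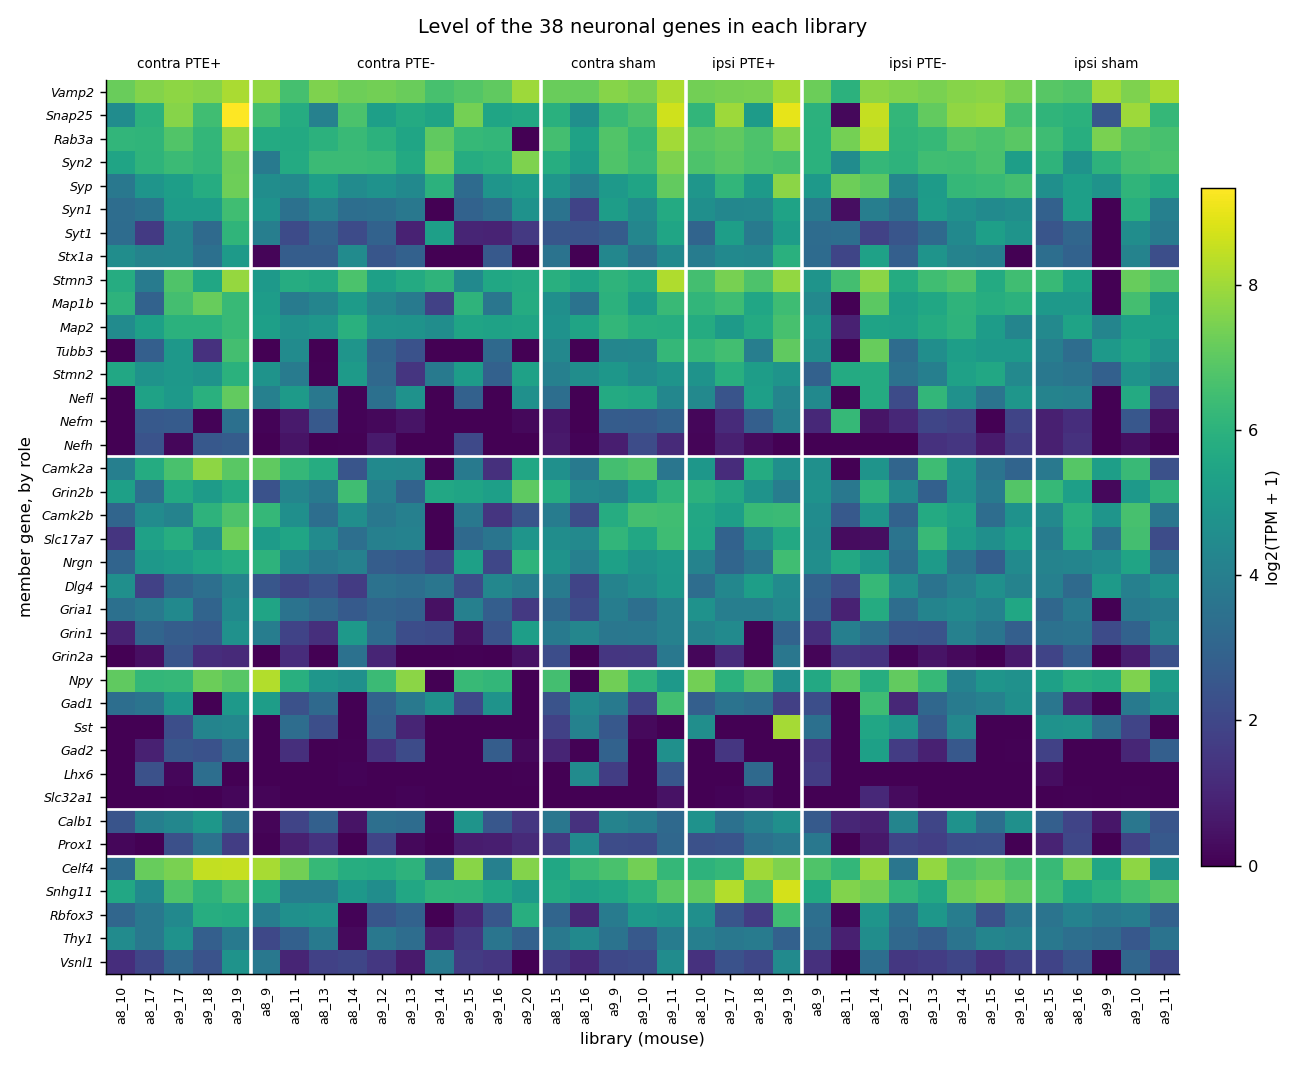
Level of each of the 38 members, as log2(TPM + 1), in each of the 37 libraries; each line is a gene, grouped by role, each column is a library named by mouse, and white lines part roles and groups. Vamp2 was high in every library, Lhx6 and Slc32a1 were at 0 in 22 and 25 of the 37, and dark columns mark the libraries with many members at the detection limit.

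Genes of vesicle release had the highest summed level of the roles, with a mean of 598 TPM across the 37 libraries. Vamp2 led them and was as steady across libraries as the astrocyte markers (coefficients of variation 0.31 and 0.32). Which cells its transcripts came from was not tested. Vamp2, the vesicle SNARE synaptobrevin 2, had 148, 192, 213, 198 and 286 TPM in the 5 contralateral PTE+ libraries (in the order a8_10, a8_17, a9_17, a9_18, a9_19) and 145, 144, 197, 169 and 292 TPM in sham (a8_15, a8_16, a9_9, a9_10, a9_11). Its contralateral PTE- libraries ran from 95.4 through a median of 150 to 249 TPM. All 3 groups overlapped. Ipsilateral Vamp2 had 162, 171, 174 and 280 TPM in PTE+ (a8_10, a9_17, a9_18, a9_19), 120, 108, 264, 186 and 277 TPM in sham and 62.7 to 208 TPM (median 181) in PTE-. Most libraries thus lay within a narrow band, and the lowest was that of a8_11.

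Snap25, the plasma membrane SNARE of the release complex, was far less even than Vamp2. It had 22.4, 63.2, 197, 87.1 and 647 TPM in contralateral PTE+, 59.8, 24.1, 79, 106 and 404 TPM in contralateral sham, and 16.4 to 168 TPM (median 50.1) in contralateral PTE-. A single library led each of the smaller groups, a9_19 in PTE+ and a9_11 in sham. Ipsilaterally the values were 69.7, 251, 34.2 and 505 TPM in PTE+, 67.7, 62.1, 4.77, 253 and 74.4 TPM in sham, and 0.14 to 362 TPM (median 116) in PTE-. Syp, the vesicle membrane protein synaptophysin, reached 155 TPM in a9_19 and 137 TPM in a9_11 contralaterally, against medians of 36.6 TPM in PTE+, 24.5 TPM in PTE- and 32.5 TPM in sham. The other 5 members of this role were Rab3a, Syn2, Syn1, Syt1 and Stx1a, with means of 104, 81, 21.3, 14 and 12.9 TPM.

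Among the cytoskeletal genes Stmn3, a stathmin that binds tubulin in neurons, had 53.8, 13.8, 107, 46.4 and 230 TPM in contralateral PTE+ and 58.6, 43.1, 66.7, 54.3 and 296 TPM in contralateral sham. Its contralateral PTE- libraries ran from 20.6 to 103 TPM with a median of 50.2. Map1b, a microtubule-associated protein of growing axons, had 65.5, 6.57, 92.1, 144 and 77.6 TPM in contralateral PTE+, 23.9, 10.8, 63.8, 34.5 and 78.9 TPM in sham and 2.5 to 66.9 TPM (median 18.4) in PTE-. In Map1b 3 of the 5 contralateral PTE+ libraries lay above every PTE- library, and a8_17 lay well inside the PTE- range.

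Map2, the dendritic microtubule-associated protein, had 21.9, 38.5, 61.4, 62.2 and 78.4 TPM in contralateral PTE+, 26.3, 43.1, 71.7, 57.3 and 55.4 TPM in sham and 22.6 to 59.6 TPM (median 33.5) in PTE-. In the ipsilateral libraries it had 52.8, 32.8, 51 and 96.8 TPM in PTE+, 19.9, 41.6, 18.1, 38.8 and 37.2 TPM in sham, and 0.79 to 65.5 TPM (median 37.4) in PTE-. Ipsilateral Map1b had 69, 84.8, 45.5 and 86.5 TPM in PTE+ and 31.1, 32.6, 0, 91.8 and 34 TPM in sham. The groups overlapped for both genes on both sides. The neurofilament genes Nefl, Nefm and Nefh, which encode the light, medium and heavy chains of the axonal filament, had falling means of 24.3, 4.36 and 0.938 TPM, and Tubb3 and Stmn2, neuronal tubulin and a stathmin of growth cones, had 28.8 and 25.8 TPM.

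Excitatory genes were led by Camk2a, the alpha subunit of the calcium/calmodulin kinase of the postsynapse. Its levels were 15.4, 53.3, 101, 216 and 123 TPM in contralateral PTE+, 25.1, 13, 92.1, 112 and 11.7 TPM in sham and 0.04 to 134 TPM (median 20.2) in PTE-. Ipsilateral Camk2a had 30.1, 1.28, 53.3 and 24.3 TPM in PTE+ and 12.7, 116, 37.1, 78.9 and 3.97 TPM in sham, beside 0.01 to 85.3 TPM (median 17.9) in PTE-. Its order of groups thus differed between the sides, with the contralateral PTE+ mean (102 TPM) the highest of the 6 and the ipsilateral PTE- and PTE+ means (23.8 and 27.3 TPM) the lowest.

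Grin2b, an NMDA receptor subunit, had means between 35.3 and 42.3 TPM in the 6 groups. Slc17a7, which loads glutamate into vesicles as VGLUT1, had 1.73, 39.8, 56.1, 25 and 154 TPM in contralateral PTE+, 22.8, 20, 69, 47.6 and 86.3 TPM in sham and 0 to 44.1 TPM (median 16.3) in PTE-. All 5 sham libraries lay above the PTE- median. Ipsilateral Slc17a7 had 45.7, 6.58, 21.7 and 48.2 TPM in PTE+, 14, 55.4, 10.3, 92.2 and 3.53 TPM in sham and 0.25 to 78.8 TPM (median 22.8) in PTE-. The other members of the role, Camk2b, Nrgn, Dlg4, Gria1, Grin1 and Grin2a, had means from 35.1 down to 1.92 TPM.

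In most libraries the inhibitory sum in TPM was mostly Npy, the gene of neuropeptide Y. Its share of that sum had a median of 81.1% over all libraries and ran from 0% to 100%. In the ipsilateral PTE+ library of a9_19 the share was 8.06%. Npy had 133, 72.4, 74.4, 149 and 120 TPM in contralateral PTE+, 93.8, 0, 158, 65.6 and 31.4 TPM in sham and 0 to 304 TPM (median 64.7) in PTE-. Ipsilateral Npy had 164, 62.2, 121 and 24.2 TPM in PTE+, 39, 57.2, 51.8, 184 and 36.1 TPM in sham and 16.5 to 137 TPM (median 52.2) in PTE-. It was listed at 0 in 3 libraries, all contralateral, namely sham a8_16 and PTE- a9_14 and a9_20.

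Gad1, the larger of the 2 glutamate decarboxylases, had 9.38, 11, 30.5, 0 and 32.1 TPM in contralateral PTE+, 4.26, 20.6, 13.4, 2.72 and 91.3 TPM in sham and 0 to 36.1 TPM (median 7.42) in PTE-. Its ipsilateral levels were 6.15, 10.8, 9.2 and 2.44 TPM in PTE+, 11.6, 0.99, 0, 13.4 and 24.9 TPM in sham and 0 to 86.5 TPM (median 10.8) in PTE-. The other decarboxylase, Gad2, had 0, 0.8, 4.67, 4.05 and 8.91 TPM in contralateral PTE+ and 0.95, 0.05, 6.67, 0.01 and 24.5 TPM in sham. Every contralateral PTE- library of Gad2 was at or under 5.69 TPM, with a median of 0.09. Ipsilaterally 3 of the 4 PTE+ libraries of Gad2 had 3 counts or fewer and the other had 1.75 TPM, while PTE- ran from 0.01 to 38.4 TPM and sham from 0 to 6.01 TPM.

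The remaining interneuron genes were seen in some libraries and not in others. Sst, the gene of somatostatin, had 0, 0, 3.68, 17.6 and 18.9 TPM in contralateral PTE+, 2.5, 16.7, 4.98, 0.18 and 0 TPM in sham and 0 to 9.16 TPM in PTE-, where 6 of 10 libraries were at 0. In ipsilateral PTE+ it had 23.7, 0, 0 and 273 TPM, the last being the highest Sst value of the 37, in a9_19. Lhx6, a transcription factor of interneurons from the medial ganglionic eminence, had 0, 3.94, 0.12, 9.34 and 0 TPM in contralateral PTE+ and 0, 21.8, 2.26, 0 and 4.85 TPM in sham. None of the 10 contralateral PTE- libraries had more than 5 counts of Lhx6, which is at most 0.07 TPM. Slc32a1, which loads GABA into vesicles, was above 3 counts in 9 of 37 libraries and never above 1.11 TPM, and it passed the filter on low counts only where both sides were fitted together. Lhx6 was above 3 counts in 10 of 37 libraries and was not tested in the ipsilateral fit. Contralaterally Lhx6 passed that filter, which took all 3 groups together, only through PTE+ and sham libraries.

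Granule cell markers were low. Calb1, the calcium buffer calbindin, had 4.4, 15.4, 18.9, 29.4 and 9.78 TPM in contralateral PTE+, 12, 1.54, 17, 14.2 and 8.03 TPM in sham and 0.06 to 27.5 TPM (median 3.79) in PTE-. In ipsilateral PTE+ it had 26.1, 10.1, 15.7 and 23.9 TPM, beside 6.08, 2.74, 0.47, 11.9 and 4.58 TPM in sham and 0.81 to 26 TPM (median 7.34) in PTE-. Prox1, a homeobox factor of granule cells, had 0.12, 0, 3.87, 10.5 and 2.25 TPM in contralateral PTE+, 1.91, 21.1, 3.5, 3.25 and 7.73 TPM in sham and 0 to 2.8 TPM (median 0.675) in PTE-. Only 1 of the 10 contralateral PTE- libraries of Prox1 was above the lowest sham value. Ipsilateral Prox1 had 3.94, 4.34, 10.3 and 12.5 TPM in PTE+, 0.92, 2.93, 0, 2.57 and 5.14 TPM in sham and 0 to 12.4 TPM (median 2.54) in PTE-.

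The other neuronal genes were led by Celf4, an RNA-binding protein of excitatory neurons. It had 8.98, 142, 173, 361 and 365 TPM in contralateral PTE+, 45.8, 81, 99.7, 164 and 72.9 TPM in sham and 11.6 to 276 TPM (median 70.4) in PTE-. Snhg11, a long noncoding RNA enriched in neurons, had 48.1, 20.7, 107, 65.8 and 101 TPM in contralateral PTE+, 50.7, 39.6, 45.6, 63.2 and 122 TPM in sham and 14.5 to 65.8 TPM (median 39) in PTE-. Ipsilateral Snhg11 had 130, 308, 100 and 426 TPM in PTE+, 86.6, 44.8, 61.2, 89.4 and 121 TPM in sham and 48.8 to 187 TPM (median 145) in PTE-. In ipsilateral PTE+ 3 of 4 libraries lay above the highest sham library. Rbfox3, which encodes NeuN, had a mean of 17.7 TPM, and Thy1 and Vsnl1, a neuronal surface protein and a calcium sensor, had 10.6 and 4.91 TPM.

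**Figure D2:**
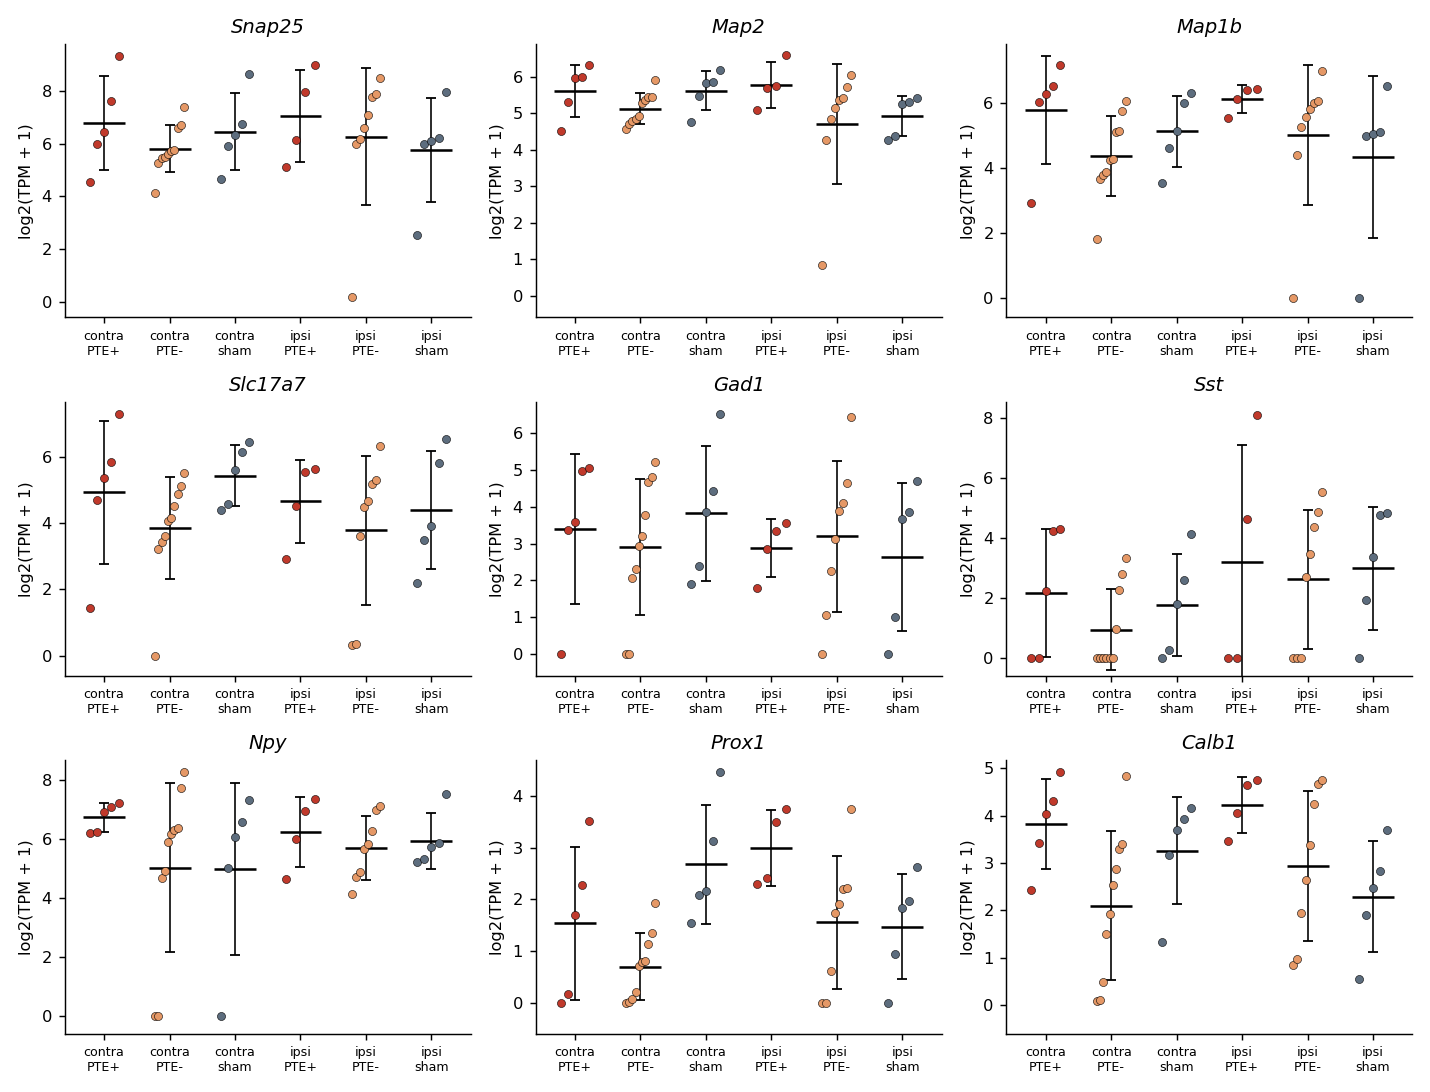
Level of 9 members, as log2(TPM + 1), in each library of the 6 groups; each point is a library, the long bar is the mean and the error bar is 1 SD, with bars below the axis cut off. All groups overlapped for each gene, contralateral PTE- points of Prox1 sat low, and 15 of the 37 points of Sst and 5 of Gad1 lay at 0.

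Summed over the 38 members, the level was 1880 ± 1098 TPM (SD, n = 5) in contralateral PTE+, 1023 ± 298 TPM (n = 10) in PTE- and 1500 ± 782 TPM (n = 5) in sham. Ipsilaterally it was 2119 ± 869 TPM (n = 4), 1495 ± 579 TPM (n = 8) and 1299 ± 491 TPM (n = 5). Mouse a9_19 had the highest level of 16 members among the contralateral libraries and of 13 among the ipsilateral ones. Without that mouse the PTE+ means were 1440 ± 560 TPM (n = 4) contralaterally and 1692 ± 192 TPM (n = 3) ipsilaterally. Mouse names start with a8 or a9, a prefix that no source explains, and the sums of the contralateral PTE+ and sham groups did not overlap between the prefixes. The 2 a8 libraries of contralateral PTE+ had 864 and 1062 TPM and its 3 a9 libraries 1835 to 3641 TPM, and in sham the 2 a8 libraries had 708 and 977 TPM and the 3 a9 libraries 1486 to 2739 TPM. In contralateral PTE- the prefixes overlapped, with 827 to 1676 TPM in 4 a8 libraries and 740 to 1379 TPM in 6 a9 libraries. The contralateral PTE+ sums thus lay above those of PTE- among a9 mice only, and among a8 mice both PTE+ sums lay inside the PTE- range.

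Excitatory and inhibitory members were also summed apart. The 9 excitatory members had 308 ± 179 TPM (n = 5) in contralateral PTE+, 168 ± 107 TPM (n = 10) in PTE- and 263 ± 119 TPM (n = 5) in sham, and 243 ± 67 TPM (n = 4), 184 ± 88.8 TPM (n = 8) and 234 ± 111 TPM (n = 5) in the same groups ipsilaterally. The 6 inhibitory members had 141 ± 40.7, 101 ± 105 and 113 ± 54.3 TPM contralaterally and 177 ± 95.5, 103 ± 65.9 and 99.1 ± 58.2 TPM ipsilaterally. PTE+ had the highest mean of both sums on both sides in TPM, and the ranges of all groups overlapped. Without a9_19 the excitatory PTE+ means were 246 ± 133 TPM (n = 4) contralaterally and 218 ± 54 TPM (n = 3) ipsilaterally. Both lay below the sham means. For the ipsilateral excitatory sum the ratio of the PTE+ to the sham mean was 1.04 in TPM and 0.937 in CPM (counts scaled to the library total and not by length). Without Npy the inhibitory sums had medians of 31, 14.3 and 27.3 TPM contralaterally and 23.7, 20.9 and 28.8 TPM ipsilaterally for PTE+, PTE- and sham. The inhibitory order depended on the unit. In ipsilateral PTE+ over PTE- the ratio of means was 1.71 in TPM and 0.782 in CPM, in contralateral PTE+ over sham 1.24 and 0.742, and in contralateral PTE- over sham 0.892 and 0.463. Without a9_19 the PTE+ mean of the inhibitory sum was 131 ± 39.5 TPM (n = 4) contralaterally and 136 ± 59.7 TPM (n = 3) ipsilaterally. Both still lay above the sham means.

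**Figure D3:**
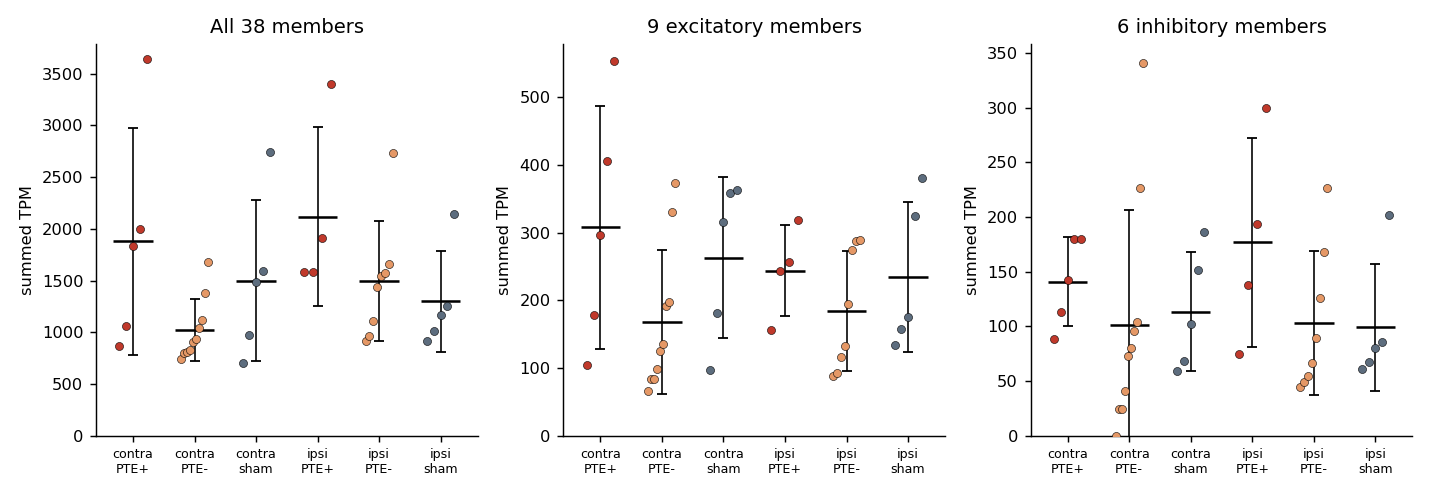
Summed TPM of all 38 members, of the 9 excitatory members and of the 6 inhibitory members in each library; each point is a library, the long bar is the mean and the error bar is 1 SD, cut off at 0. Contralateral PTE- libraries lay between 740 and 1676 TPM in the sum of all members, inside the range of the sham libraries, while a9_19 stood above the other PTE+ libraries on both sides.

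PTE+ and PTE- mice were compared first, since they shared the injury and differed in seizures. On the contralateral side the fitted level of 34 of 37 members tested was higher in PTE+ and that of 3 was lower, with a median log2 fold change of 1.04, beside 46.7% of all genes higher and a median of -0.05. No member passed an adjusted p of 0.05 in edgeR's quasi-likelihood test with Benjamini-Hochberg adjustment over the 14642 genes tested, among which 0.00683% passed. At an unadjusted p under 0.05 there were 3 members, all higher in PTE+, where 2.21% of all genes passed. That number ran from 1 to 5 when 1 library was left out and from 2 to 8 under the other settings. The share of all genes moved too. With limma on log2(TPM + 1) the number was 8, beside 811 of 14642 genes, and with the name prefix as a covariate it was 2, beside 322 of 14642. The spread between libraries was wide, with a biological coefficient of variation of 1.32 in the contralateral and 1.4 in the ipsilateral fit, so a p that missed the threshold does not show that levels were alike. The median was 1.34 for the 8 cytoskeletal genes, 1.07 for the 8 vesicle genes, 0.22 for the 9 excitatory genes, 1.54 for the 5 inhibitory genes tested, 1.55 for the granule cell pair and 0.88 for the 5 others.

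The 3 members were Lhx6, Map2 and Snap25. Lhx6 had a log2 fold change of 7.54 ± 1.94 (SE, edgeR adjusted p = 1) and an exact two-sided permutation p of 0.022, on values that were at or near 0 in all 10 PTE- and 3 of 5 PTE+ libraries. The fold change of so low a gene depended on the scale, and limma on log2(TPM + 1) gave 1.14. Map2 had 0.68 ± 0.29 (edgeR adjusted p = 1, exact permutation p = 0.0733) and Snap25 1.36 ± 0.62 (edgeR adjusted p = 1, exact permutation p = 0.218). Without a9_19 the log2 fold change of Snap25 was 0.32, the median of the members 0.37 and the number with a higher PTE+ level 30. DESeq2 and limma also gave 0 members at an adjusted p of 0.05 in this comparison. The exact permutation p was under 0.05 for 3 of 38 members, Lhx6, Thy1 and Stx1a, the last with the lowest (0.0113). This test was run on the members only, so its counts, here and below, have no share over all genes beside them. No member had PTE+ and PTE- libraries that did not overlap, which 0.0888% of all genes had. Astrocyte markers summed to 14810 to 16823 TPM in contralateral PTE+ and 13876 to 20079 TPM in PTE-, and the 9 endothelial markers to 982 to 6316 and 508 to 2736 TPM, and their part in the member values was not tested.

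On the ipsilateral side, of 36 members tested, 24 had a higher and 12 a lower fitted level in PTE+, with a median log2 fold change of 0.14, beside 49.3% of all 14903 genes higher. In edgeR none of them passed an adjusted p of 0.05 (0% of all genes) or an unadjusted p under 0.05 (1.75% of all genes). Without a9_19 the median was -0.02 with 18 members higher, and without the PTE- library of a9_13 the median was 0.41. Prox1 had 1.42 ± 1.52 and an exact permutation p of 0.0525. None of the members had groups that did not overlap, beside 0.228% of all genes. Sst had 2.33 ± 2.05 (edgeR adjusted p = 1) and -0.89 without a9_19. The 9 excitatory genes had a median of 0.00 and the 4 inhibitory genes tested one of -0.79, with Gad2 at -2.99 ± 2.31 and Gad1 at -1.64 ± 1.61 (edgeR adjusted p = 1 for both). Without the PTE- library of a8_14 Gad2 was -1.19 and Gad1 -0.61, and without the PTE+ library of a9_17 Gad2 was -8.71.

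PTE- mice were compared with sham mice for the effect of injury without seizures. Contralaterally 30 of 37 members had a lower and 7 a higher fitted level in PTE-, with a median log2 fold change of -0.66, beside 55.3% of all genes higher and a median of 0.07. No member passed an adjusted p of 0.05 in edgeR (0% of all genes), and 2 members, Lhx6 and Prox1, had an unadjusted p under 0.05 (1.54% of all genes). All 8 cytoskeletal genes and 7 of 8 vesicle genes were on the lower side. Without the sham library of a9_11, the median was -0.27 and 13 members were on the higher side. None of the members had groups that did not overlap, beside 0.0341% of all genes.

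Prox1 averaged 0.786 TPM in contralateral PTE- and 7.5 TPM in sham, a log2 fold change of -3.02 ± 1.31 (edgeR adjusted p = 1) with an exact permutation p of 0.005. Leaving out the sham library of a8_16, at 21.1 TPM, brought the log2 fold change to -1.84. Lhx6 averaged 0.017 TPM in PTE- and 5.77 TPM in sham, a log2 fold change of -8.96 ± 2.05 with an edgeR adjusted p of 0.917 and an exact permutation p of 0.022. With limma on log2(TPM + 1) it was -1.73. DESeq2, the test used by the study, gave an adjusted p of 0.00281 for Lhx6, and no other member passed in this comparison, where 26 of 14500 genes passed. Over the other 7 settings that kept all or most libraries, edgeR's fit included, the adjusted p of Lhx6 ran from 0.562 to 1. Lhx6 entered edgeR's fit only through PTE+ and sham libraries, so its fold changes against PTE- cannot serve as support for a difference. Since 2 of the 5 sham libraries had no count of Lhx6, the 2 groups overlapped. The exact permutation p was under 0.05 for 4 of 38 members, Prox1, Lhx6, Grin2a and Thy1, with no share over all genes to set it against.

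On the ipsilateral side 23 of 36 members had a higher and 13 a lower fitted level in PTE- than in sham, with a median log2 fold change of 0.24, beside 51.5% of all genes higher. In edgeR no member passed an adjusted p of 0.05 (0% of all genes) or an unadjusted p under 0.05 (1.58% of all genes). Without the PTE- library of a8_14 the median was 0.02 with 19 members higher. No groups were apart, beside 0.0671% of all genes. All 8 cytoskeletal genes were on the higher side, and Camk2a, at 23.8 against 49.7 TPM, had a log2 fold change of -1.06 ± 1.06 (edgeR adjusted p = 1).

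PTE+ mice were compared with sham mice last. On the contralateral side 25 of 37 members had a higher and 12 a lower fitted level in PTE+, with a median log2 fold change of 0.35, beside 52.5% of all genes higher. By edgeR 0 members passed an adjusted p of 0.05 (0% of all genes) or an unadjusted p under 0.05 (1.23% of all genes), and none had groups that did not overlap (0.574% of all genes). Without a9_19 the median was -0.31 and 15 members were on the higher side. The exact permutation p was under 0.05 for 1 of 38 members, Stmn2 (p = 0.0397).

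On the ipsilateral side 25 of 36 members had a higher and 11 a lower fitted level in PTE+ than in sham, with a median log2 fold change of 0.42, beside 50.1% of all genes higher. No member passed an adjusted p of 0.05 in edgeR (0% of all genes), and 1, Snhg11, had an unadjusted p under 0.05 (1.66% of all genes). Without a9_19 the median was 0.05, and no member had an unadjusted p under 0.05 in edgeR. Snhg11 averaged 241 TPM in PTE+ and 80.5 TPM in sham, a log2 fold change of 1.65 ± 0.58 (edgeR adjusted p = 1) with an exact permutation p of 0.0476. Without a9_19 its log2 fold change was 1.25. Of the 38 members, 2 had an exact permutation p under 0.05 in this comparison, Snhg11 and Stmn2. Stmn2, named here after its value was seen, had the lowest, 0.0238. Calb1 averaged 19 TPM against 5.15 TPM with a log2 fold change of 1.69 ± 1.29 (edgeR adjusted p = 1) and an exact permutation p of 0.0556. No member had groups that did not overlap, which 1.4% of all genes had. These 3 contrasts of a side share their libraries pairwise, so they are not independent of each other.

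**Figure D4:**
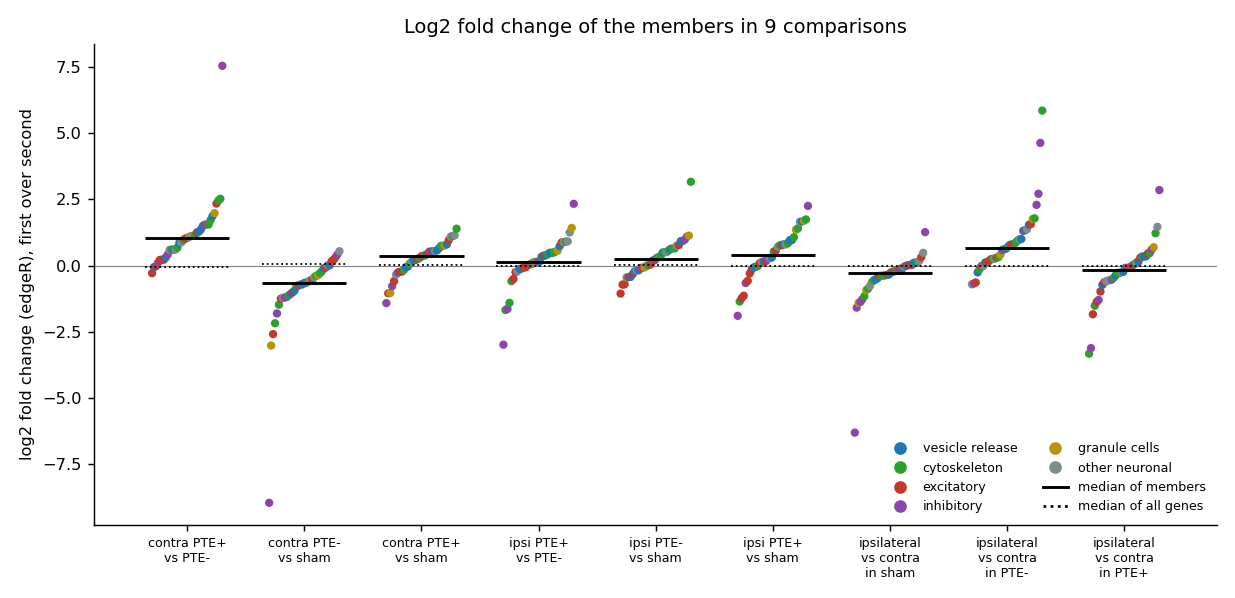
Log2 fold change from edgeR of each member tested in the 6 comparisons of groups and the 3 of hemispheres; each point is a gene coloured by role, the solid bar is the median of the members and the dotted bar the median of all genes. The median of the members was 1.04 in contralateral PTE+ over PTE-, -0.66 in contralateral PTE- over sham and 0.67 in ipsilateral over contralateral PTE-, with Lhx6 the farthest point in the first 2 and Nefm in the third.

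The 2 hemispheres were compared in the 17 mice that had both. In the 8 PTE- mice the summed level of the members was higher ipsilaterally in 7, with a median ratio of 1.56 (range 0.549 to 2.64). In sham mice it was higher in 3 of 5 (median ratio 1.04, range 0.459 to 1.65) and in PTE+ mice in 2 of 4 (0.987, 0.791 to 1.83). The sum of excitatory members was higher ipsilaterally in 4 of 8 PTE-, 2 of 5 sham and 1 of 4 PTE+ mice, and that of inhibitory members in 4, 2 and 2. Vesicle and cytoskeletal members were higher ipsilaterally in 7 of 8 PTE- mice, with median ratios of 1.52 and 1.82.

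In edgeR 31 of 38 members had a higher and 7 a lower fitted level on the ipsilateral side of PTE- mice, with a median log2 difference of 0.67, beside 48% of all 15731 genes higher and a median of -0.03. None of the 38 passed an adjusted p of 0.05 in edgeR (0% of all genes), and 4 had an unadjusted p under 0.05, all higher ipsilaterally, where 4.56% of all genes passed. This fit takes the 2 libraries of a mouse as independent, and with the mouse as a block 3 members had an unadjusted p under 0.05, while the number among all 15731 genes was 315 in place of 717. Without the ipsilateral PTE- library of a8_14 the median of the members was 0.43. In sham mice 10 members were on the higher and 28 on the lower side, with a median of -0.30, and in PTE+ mice 15 and 23, with a median of -0.16. None passed an adjusted p of 0.05 in either group (0% of all genes in each). The number at an unadjusted p under 0.05 was 0 in sham (2.05% of all genes) and 1 in PTE+ (2.93%). Without the contralateral sham library of a9_11 the sham median was 0.09 with 23 members higher, and without the contralateral library of a9_19 the PTE+ median was 0.30 with 22 higher.

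Snhg11, Nefm and Syp had the smallest edgeR p among the PTE- mice. Snhg11 averaged 123 TPM ipsilaterally and 43.4 TPM contralaterally and was higher ipsilaterally in 7 of 8 mice, with a log2 difference of 1.37 ± 0.41 (edgeR adjusted p = 0.545) and an exact sign-flip permutation p of 0.0156. Syp averaged 76.2 and 26.3 TPM and was also higher in 7 of 8, with 1.54 ± 0.51 (edgeR adjusted p = 0.545, exact permutation p = 0.0391). Nefm, the medium neurofilament chain, averaged 10.7 and 0.16 TPM and was higher in 7 and lower in none, with 5.85 ± 1.80 (edgeR adjusted p = 0.545, exact permutation p = 0.0156). DESeq2 gave Nefm an adjusted p of 0.000397, and Nefm was the only member to pass there, beside 132 of 15355 genes. Over the other 6 settings, edgeR's fit included, the adjusted p of Nefm ran from 0.316 to 1. Stmn3 was the only other member with an exact permutation p under 0.05 in this comparison.

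The ipsilateral Nefm mean rested on a8_11, at 75 TPM, while the other 7 PTE- libraries ran from 0 to 2.9 TPM, and without it the log2 difference was 2.97. With limma on log2(TPM + 1) it was 1.63. The same library had 0.14 TPM of Snap25 and no count of Map1b. In PTE+ mice Snhg11 was higher ipsilaterally in 4 of 4, at 241 against 80.5 TPM, with 1.46 ± 0.58 (edgeR adjusted p = 1) and an exact permutation p of 0.125, the smallest that 4 pairs allow. In sham mice it averaged 80.5 TPM ipsilaterally and 64.3 TPM contralaterally. The smallest p that the 5 sham pairs allow is 0.0625. The fourth PTE- member by p was Rab3a, a vesicle GTPase, which had 0.78 ± 0.37 (edgeR adjusted p = 1) and is named here after its value was seen. The 12 astrocyte markers had a median log2 difference of -0.08 in the same PTE- mice, with 11 of 12 lower ipsilaterally, and their part in the member values was not tested.

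**Figure D5:**
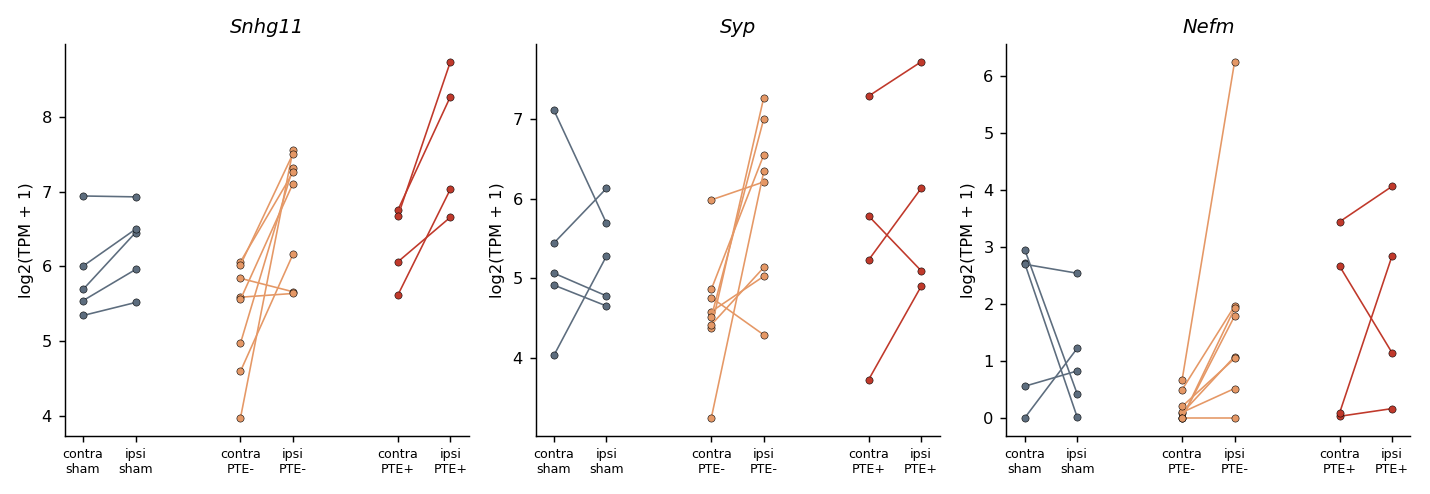
Level of Snhg11, Syp and Nefm, as log2(TPM + 1), in the contralateral and ipsilateral library of each of the 17 mice with both; a line joins the libraries of a mouse. Snhg11 was higher ipsilaterally in 7 of 8 PTE- and 4 of 4 PTE+ mice, and the highest Nefm point is the ipsilateral PTE- library of a8_11.

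Whether the side difference itself differed between groups was tested in the same fit. Between PTE- and sham mice the side difference was higher in PTE- for 33 of 38 members, with a median of 1.07, beside 48.5% of all genes. No member passed an adjusted p of 0.05 in edgeR (0% of all genes), and 2, Lhx6 and Nefm, had an unadjusted p under 0.05 (3.13% of all genes). With the mouse as a block 1 member had such a p, beside 168 of 15731 genes. Nefm had 7.01 ± 2.65 (edgeR adjusted p = 1) with an exact permutation p of 0.0249. Lhx6 had 10.94 ± 4.09 (edgeR adjusted p = 1) with an exact permutation p of 0.0272, and 4.41 without the ipsilateral PTE- library of a8_9, the only one of the 8 above 1 count. With limma on log2(TPM + 1) the values were 1.87 for Lhx6 and 2.41 for Nefm. Without the contralateral sham library of a9_11 the median of the members was 0.63.

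Between PTE+ and PTE- mice 6 members had a higher and 32 a lower side difference in PTE+, with a median of -0.85, beside 49.9% of all genes higher. None passed an adjusted p of 0.05 (0% of all genes) or an unadjusted p under 0.05 (2.94% of all genes) in edgeR. Without the contralateral library of a9_19 the median was -0.20. Between PTE+ and sham mice the numbers were 25 and 13, with a median of 0.14. The direction turned on single libraries, since the median was -0.18 without the contralateral sham library of a9_11, -0.15 without the contralateral PTE+ library of a8_10, -0.06 without the ipsilateral PTE+ library of a9_19, and 0.69 without the contralateral library of a9_19. Again, none passed an adjusted p of 0.05 (0%) or an unadjusted p under 0.05 (2.66%) in edgeR. Snhg11 had a side difference of 1.28 ± 0.76 in PTE+ over sham (edgeR adjusted p = 1, exact permutation p = 0.0159) and of 1.18 ± 0.65 in PTE- over sham (edgeR adjusted p = 1, exact permutation p = 0.0466).

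Other neuronal genes, listed by role and not among the 38, gave a reference for these values. In contralateral PTE+ against PTE-, 18 of 19 further release genes were higher in PTE+, with a median log2 fold change of 0.92 and 1 at an unadjusted p under 0.05. The further excitatory genes had 10 of 14 higher with a median of 0.31, and the further inhibitory genes 7 of 12 with a median of 0.15. In ipsilateral PTE+ against PTE- 11 of 19, 9 of 14 and 9 of 11 of them were higher, with medians of 0.34, 0.39 and 1.31. On the ipsilateral over the contralateral side of PTE- mice, 16 of 19 release genes were higher (median 0.96), 8 of 15 excitatory genes (0.17) and 6 of 13 inhibitory genes (-0.01). Beside the median of 1.31 for the further inhibitory genes in ipsilateral PTE+ against PTE- stands the -0.79 of the 4 inhibitory members tested there, a difference that was not tested.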

How the data were processed

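RNA of ACSA-2 isolated hippocampal astrocytes was sequenced in 37 libraries. The authors trimmed reads with Trim Galore 0.6.4, aligned them with Bowtie2 2.4.1 and quantified genes with RSEM 1.2.28 on mm10, as the methods and the submitters' processing notes say. They deposited, for each hemisphere, a table of RSEM expected counts and a table of TPM. Library totals ran from 25371887 to 59846479 counts, and errors are given as the spread between libraries, which includes counting error.

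Here expected counts were used as deposited, scaled by TMM and filtered with filterByExpr. They were fitted with edgeR 4.0.16 (quasi-likelihood, R 4.3.3), in 1 fit for each hemisphere (14642 and 14903 genes) and 1 for both (15731 genes), all groups sharing the spread. P-values were adjusted by Benjamini-Hochberg over all genes of a fit, with a threshold of 0.05. The SE of an edgeR log2 fold change is its size divided by the square root of the F statistic. It is approximate, above all for genes at or near 0 in most libraries. For each of the 38 members a two-sided exact permutation test used log2(CPM + 1), giving 456 tests over the 12 comparisons whose p-values are unadjusted. In a comparison 0 to 4 of the 38 were under 0.05, and single values under 0.05 occur by chance among so many tests. The permutation test was not run on other genes, so whether these numbers exceed those of all genes was not tested. TPM were used for levels and sums. Alternatives were DESeq2 1.42.0, limma 3.58.1 on log2(TPM + 1) and log2(TPM + 0.1), RLE scaling, no filter, a fit of only the groups compared, the name prefix as a covariate, the mouse as a block, each library left out in turn and the libraries with fewest genes left out. The edgeR fit was tested on simulated data, where it recovered changed genes at a low spread between libraries but not at a spread like that of these libraries, so the absence of calls is weak evidence on any gene. A gene with 3 counts or fewer in a library was taken as not detected there.

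Pairing comes from the mouse names in the titles, which the libraries of both hemispheres share. In 17 mice the correlation of a mouse's 2 libraries, as deviations from their group means, had a median of 0.0838 (-0.0293 to 0.313), beside -0.0164 between different mice. The members, the other lists and the tests were chosen with earlier results of these data known. Members given in full were the 2 of each role with the highest mean TPM, the interneuron genes and Slc17a7, Map2, Map1b, Prox1 and Calb1, and those with the smallest unadjusted p under 0.05, at most 3 for each comparison and direction. Each library of a group is from a different mouse, so p-values measure the spread between mice and their preparation together.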

Additional observations from a re-analysis of the deposited data

Results flagged for a closer look

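In 35 of 246 groups of 4 to 10 libraries (14.2%), the highest or lowest library of a member or sum stood apart by Dixon's test at the 95% level. That level presumes normal values. Some flagged groups were at 0 in all libraries but 1, as Lhx6 in ipsilateral sham was, and groups share libraries. The share can therefore not be set against chance. In the ipsilateral PTE- library of a8_11 Snap25 (0.14 TPM), Syn1 (0.28 TPM), Vamp2 (62.7 TPM), Map2 (0.79 TPM) and Map1b (0 TPM) were far below the other 7 libraries and Nefm (75 TPM) far above. The ipsilateral sham library of a9_9 was lowest in Stmn3, Map1b and Gria1 (0 TPM each) and Grin2b (0.16 TPM). Among contralateral PTE+ libraries a8_10 was lowest in Nefl (0.02 TPM) and Celf4 (8.98 TPM), a8_17 was lowest in Map1b (6.57 TPM) and Grin2b (9.73 TPM), and a9_19 was highest in Slc32a1 (0.12 TPM).

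Among contralateral PTE- libraries a9_14 was lowest in Syn1 and Slc17a7 (0 TPM each), a9_20 in Rab3a (0 TPM) and in the inhibitory sum (0.19 TPM), and a8_9 in Syn2 (13.3 TPM). Highest there were a8_13 in Nefm (5.08 TPM), a9_15 in Nefh (3.2 TPM) and a8_14 in Grin2a (10.1 TPM). Among contralateral sham libraries a8_16 was lowest in Stx1a (0 TPM) and a9_11 highest in Stmn3 (296 TPM) and Slc32a1 (0.36 TPM).

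Among ipsilateral PTE+ libraries a9_19 was highest in Vamp2 (280 TPM), a9_17 in Gad2 (1.75 TPM) and a9_18 in Lhx6 (8.17 TPM). Among ipsilateral PTE- libraries a8_14 was highest in Slc32a1 (1.11 TPM), a8_9 was highest in Lhx6 (2.14 TPM) and a9_12 lowest in Celf4 (11.6 TPM). Among ipsilateral sham libraries a8_15 was highest in Lhx6 (0.28 TPM) and a9_10 in Npy (184 TPM) and in the inhibitory sum (202 TPM).

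The side difference had an unadjusted exact permutation p under 0.05 for 3 of 38 members in PTE- against sham. They were Nefm (p = 0.0249), Lhx6 (p = 0.0272) and Snhg11 (p = 0.0466). In PTE+ against sham it was under 0.05 for 1 of 38, Snhg11 (p = 0.0159), and in PTE+ against PTE- for 0 of 38. None of these passed edgeR's adjusted p of 0.05.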

How the results depend on the processing

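With DESeq2 1 member passed an adjusted p of 0.05, where edgeR gave 0, in contralateral PTE- against sham and in ipsilateral against contralateral PTE-. These were Lhx6 (log2 fold change -9.13, beside 26 of 14500 genes called) and Nefm (6.28, beside 132 of 15355). In the other comparisons DESeq2 gave 0 members, as limma did wherever it was run. Over all genes DESeq2 called 19 to 253 in the 12 comparisons, edgeR 0 to 1 and limma 0, and the cause was not tested. Leaving out 1 library turned the direction of 5 medians of the members, which are given with their comparisons, namely PTE+ against sham contralaterally, PTE+ against PTE- ipsilaterally, the sides in sham and in PTE+, and the side difference of PTE+ against sham. With limma on log2(TPM + 1) the median of the PTE+ sides was 0.05. Leaving out 1 library also turned 6 values of named members. In contralateral PTE+ against PTE- these were Gad1 (0.41, from -0.10 to 0.73) and Npy (0.10, from -0.07 to 0.63). In the same ipsilateral contrast they were Map1b (0.12, from -0.04 to 0.60), Sst (2.33, from -0.89 to 3.07), Npy (0.06, from -0.44 to 0.60) and Slc17a7 (0.14, from -0.16 to 0.73). Without the 2 libraries of a hemisphere with the fewest genes, a choice made after seeing the data, contralateral Npy was -0.22, ipsilateral Map1b -0.06 and ipsilateral Slc17a7 -0.06. Ipsilateral Gad1 was 0.08 with limma on log2(TPM + 0.1) against -1.64, and ipsilateral Npy -0.05 with RLE scaling and with DESeq2. The median of all genes ran from -0.05 to 0.07 in edgeR and from -0.36 to 0.47 with limma on log2(TPM + 0.1). The number of members with a higher level moved by over 1.5 times in 2 of 84 alternatives and 14 of 176 fits without 1 library, and the number at an unadjusted p under 0.05 in 17 and 29.

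In the fit that adds a replicate block for the mouse, the median of the members was -0.38 in sham, 0.65 in PTE- and -0.23 in PTE+ for ipsilateral against contralateral. For the side differences it was -0.75 in PTE+ against PTE-, 1.11 in PTE- against sham and 0.24 in PTE+ against sham. The block gave 0 adjusted calls among members in all 6, as the fit without it did. The number at an unadjusted p under 0.05 went from 4 to 3 for the PTE- sides and from 2 to 1 for the side difference in PTE- against sham, and was equal in the other 4. Over all 15731 genes it went from 717 to 315 and from 492 to 168 in the same order, and it fell in the other 4 as well.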
